A study of Mus musculus with 8 samples.

Results

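The 8 RNA-seq libraries came from 4 cultures of mouse small cell lung cancer (SCLC) cells, a neuroendocrine lung tumour, and the cultures differed in how much Nfib they expressed without any introduced copy. All cells came from primary lung tumours of mice of the genotype invCAG-Mycl-Luc; Rb1-/-; Trp53-/- on an FVB/n and 129/Ola background, so every group shares a Mycl transgene with luciferase and the loss of Rb1 and Trp53. Each culture was sequenced as 1 library with an empty vector and 1 library with overexpressed mouse Nfib, which gives 4 libraries an arm. A culture counted as low when its empty vector library held under 250 Nfib CPM (counts scaled to 1e6 of the library total), and as high otherwise. Lmyc1_old and Lmyc3_new were low, Lmyc3_old and Lmyc5_new were high, and all 8 of 8 libraries entered the comparison, 4 against 4. The labels do not explain the words old and new; each word is found once on either side, and so is the line Lmyc3.

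Nfib belongs to the nuclear factor I family of DNA-binding proteins, whose members bind as dimers to a palindrome of TTGGC half-sites. In mouse SCLC the Nfib locus is often amplified, and the gene is known for opening chromatin and for its link with metastatic spread. SCLC cells carry neuroendocrine genes (secretory granules, synaptic proteins) together with epithelial ones, such as keratins and the proteins of tight junctions and desmosomes, and the balance of these programs differs between tumours.

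The levels that chose the cultures are a description and carry no test. In the empty vector arm, Nfib stood at 70.89 CPM in Lmyc1_old, 165 CPM in Lmyc3_new, 387.8 CPM in Lmyc3_old and 483.1 CPM in Lmyc5_new. The values next to the limit on either side were thus those of the 2 Lmyc3 cultures. With the Nfib vector the levels were 1294, 3005, 4586 and 3656 CPM in the same order, so each transduced culture exceeded the empty vector library of every culture. The counts are per gene and do not separate the cell's own Nfib from the introduced copy.

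**Figure D1:**
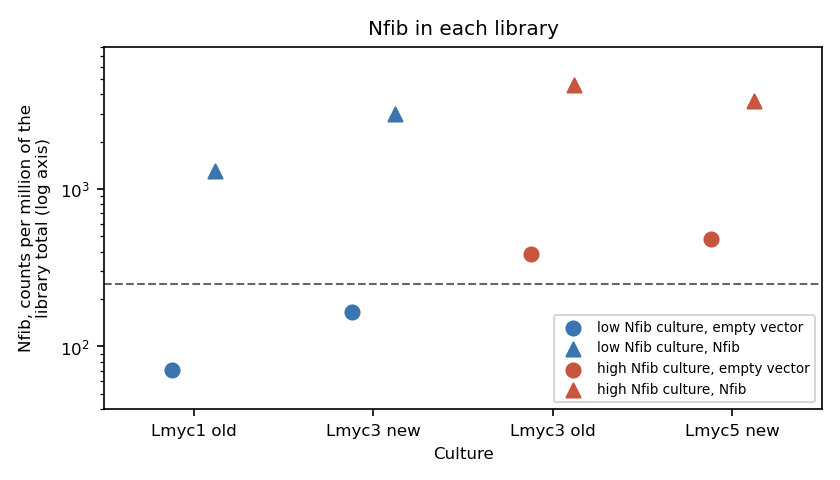
Nfib in each library as CPM of the library total (vertical log axis) for the 4 cultures (horizontal axis); circles are empty vector libraries, triangles Nfib libraries, and the dashed line is the limit of 250. The empty vector libraries sit between 70.89 and 483.1 CPM, and the Nfib libraries between 1294 and 4586 CPM.

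Libraries held 21815264 to 29934021 counts, 3 counts being worth 0.1 to 0.138 CPM, and mitochondrially encoded genes took 2.2% to 4.81% of counts. The 2 libraries of a culture were much alike: across genes with a mean of at least 5 CPM, Pearson's r of log2 CPM was 0.964 to 0.982 (4 pairs). Libraries from the 2 cultures of the same kind correlated at 0.757 to 0.839 (8 pairs), and low with high libraries of other lines at 0.674 to 0.766 (12 pairs). The 2 Lmyc3 cultures, which bear the same line name, were no closer than that, at 0.658 to 0.704 (4 pairs). These are descriptions across genes, which are not independent replicates. Both Lmyc3 cultures expressed Y-linked genes (Ddx3y at 69.3 to 165 CPM) and the other 2 expressed Xist (at 1400 to 3917 CPM), so 1 male and 1 female culture fell on each side.

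**Figure D2:**
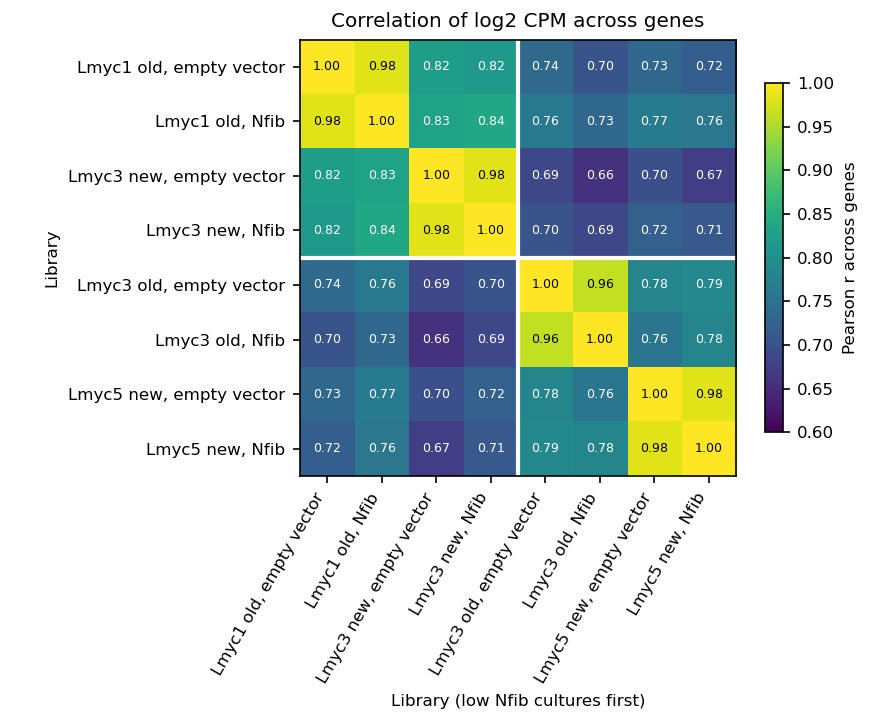
Pearson correlation of log2 CPM across genes with a mean of at least 5 CPM (colour and printed value) for every pair of the 8 libraries, low Nfib cultures first, white lines parting the kinds. The 2 libraries of a culture reach 0.964 to 0.982, and the 2 Lmyc3 cultures 0.658 to 0.704.

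Because the 2 arms of a culture share cells, the independent units were 2 cultures against 2, and p-values over 8 libraries are too small. In edgeR's quasi-likelihood test over the 8 libraries, with arm as a covariate, 497 genes were higher and 704 lower in the high Nfib cultures at an adjusted p under 0.05, 8.98% of the 13380 genes tested (3.71% higher, 5.26% lower). Below, "passed" refers to that threshold, a log2 difference is high minus low with its standard error from that fit, and CPM is scaled by edgeR's TMM factors. With the 2 arms of each culture summed, edgeR called 0 genes (smallest adjusted p 0.31, 1450 of 14563 with an unadjusted p under 0.05), and its bias-adjusted form also called 0. DESeq2 on the same sums called 390 higher and 539 lower (6.38%: 2.68% and 3.7%), and DESeq2 on the 8 libraries 1345 and 1564 (10.1% and 11.7%). A limma voom fit with the culture as a random effect (correlation within a culture 0.862) called 0 higher and 3 lower, with 1485 genes at an unadjusted p under 0.05. The empty vector libraries alone gave 0 calls by edgeR (1357 genes at an unadjusted p under 0.05), as did the Nfib libraries alone (1222). The tools thus differed on whether any gene passed at the level of cultures, and the calls below describe these 4 cultures.

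In 1182 of the 1201 called genes, all 4 libraries of one kind lay above all 4 of the other (23.6% of all tested genes); the call was made on these same libraries, so this describes it and adds no support. DESeq2 on the sums called 746 of them in the same direction. The counts moved with single libraries and cultures: they were 174 and 277 without Lmyc3_new, 1040 and 1193 without Lmyc5_new, and 175 to 296 higher and 306 to 438 lower when any 1 library was left out. The named genes that passed numbered 120, picked by rules of rank and list or, for 16 of them, after their values were seen. All kept their sign in each of these fits, and 107 passed DESeq2 on the sums. Most were picked for having no overlap of libraries. Leaving out libraries could thus hardly change their sign, and the kept sign adds no support. Without Lmyc3_new 36 of the 120 still passed in edgeR, against 63 without Lmyc1_old, 91 without Lmyc3_old and 96 without Lmyc5_new.

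Among 33 fixed gene lists, the median difference was largest for epithelial genes. Of 40 junction, keratin and epithelial regulator genes in a fixed list, 36 were tested, 17 of them were lower in the high Nfib cultures and 0 higher (all genes: 5.26% and 3.71%). The median log2 difference was -3.77, against 0.03 over all genes, and in 31 of the 36 all low Nfib libraries lay above all high ones (12.6% of all genes). The list's summed level ran from 4350 to 9639 CPM in the low libraries and from 1352 to 1750 CPM in the high ones. Its median was -3.51 in the empty vector libraries alone and -3.53 in the Nfib libraries alone; it was -2.82 within old, -5.14 within new and -4.04 between the Lmyc3 cultures. DESeq2 on culture sums called 22 members lower (background 3.7%), DESeq2 on 8 libraries 30, edgeR on the sums 0 and the random effect fit 1. Without Lmyc3_new 8 members passed, without Lmyc5_new 26, and with any 1 library left out 10 to 12. In bulk RNA, fewer cells of a type and less RNA per cell cannot be told apart.

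Several tight junction genes were lower in the high cultures. Ocln (occludin, a membrane protein of tight junctions) stood at 78.6 CPM with the empty vector and 84.4 with Nfib in Lmyc1_old, at 96.0 and 103 in Lmyc3_new, at 5.01 and 4.51 in Lmyc3_old, and at 4.78 and 5.03 in Lmyc5_new. Each low library was thus far above each high one, and both arms of a culture were alike; the log2 difference was -4.22 ± 0.15 (edgeR adjusted p = 0.000308). Cldn6 (claudin 6, a claudin of embryonic epithelia) was at 87.8 and 64.9 CPM in Lmyc1_old, 40.3 and 33.7 in Lmyc3_new, 0.52 and 0.414 in Lmyc3_old, and 0.0903 and 0.039 in Lmyc5_new (-7.74 ± 0.83, edgeR adjusted p = 0.00534). Cgn (cingulin, which links tight junctions to the cytoskeleton) was lower by the same test, at 84.6 to 203 CPM in the low libraries and 13.8 to 23.0 in the high ones. F11r (junctional adhesion molecule A) and Marveld3 also passed, with adjusted p = 0.0395 and 0.0487. Cldn3 and Tjp1 did not: Cldn3 was at 54.5 and 69.0 CPM in Lmyc5_new, close to 89.3 and 71.3 in Lmyc1_old, and Tjp1 was at 135 to 227 CPM in all 8 libraries.

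Keratins and desmosomal genes followed the same order. Krt7, a keratin of simple epithelia, was at 455 and 469 CPM in Lmyc1_old, 826 and 861 in Lmyc3_new, 59.5 and 52.6 in Lmyc3_old, and 67.3 and 41.7 in Lmyc5_new (-3.58 ± 0.30, edgeR adjusted p = 0.00378). Krt18 passed as well (adjusted p = 0.0124). Its partner Krt8 did not (edgeR adjusted p = 0.0869), although it separated the kinds and passed DESeq2 on sums (adjusted p = 0.00938). The 2 high cultures differed widely: 49.6 and 39.6 CPM in Lmyc3_old and 1.04 and 0.702 in Lmyc5_new. The low libraries were at 400 to 1293 CPM. Dsp (desmoplakin, which ties desmosomes to keratin filaments) passed, at 399 to 1497 CPM in the low libraries and 15 to 116 in the high ones, and so did Pkp2 (plakophilin 2, a desmosomal plaque protein). Jup (plakoglobin) overlapped, at 111 to 308 CPM in the low and 111 to 184 in the high libraries.

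Surface proteins and regulators of the epithelial state were mixed in their tests. Epcam, an adhesion molecule of epithelial cells, was at 201 and 229 CPM in Lmyc1_old, 591 and 515 in Lmyc3_new, 24.7 and 23.7 in Lmyc3_old, and 7 and 5.27 in Lmyc5_new (-4.66 ± 0.74, edgeR adjusted p = 0.0139). Ehf and Elf3, epithelial transcription factors of the ETS family, and Grhl1, a grainyhead factor, all passed; Ehf was at 89.9 to 249 CPM in the low libraries and 0.976 to 3.36 in the high ones. Spint1 and Spint2, inhibitors of membrane serine proteases, Prss8, one such protease, and Rab25, a GTPase of epithelial membrane traffic, passed too. Cdh1, the E-cadherin of adherens junctions, was at 268 to 787 CPM in the low libraries, 67.5 and 60.2 in Lmyc3_old and 1.94 and 0.546 in Lmyc5_new, which did not pass (adjusted p = 0.149). The same held for the splicing factors Esrp1 and Esrp2 (adjusted p = 0.132 and 0.124), and for Grhl2, which was at 2.34 and 2.61 CPM in the low culture Lmyc1_old, between the values of the high cultures. Zeb1, a repressor of epithelial genes, was at 30.1 and 33.0 CPM in Lmyc1_old, 0.186 and 0.13 in Lmyc3_new, 84.7 and 73.1 in Lmyc3_old, and 151 and 143 in Lmyc5_new (adjusted p = 0.308), and Zeb2 overlapped between the kinds. Of the epithelial genes named, Ocln, Cldn6, Krt7, Grhl1 and Ehf came from fixed rules, and the others, with Zeb1 and Zeb2, were picked after their values were seen.

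**Figure D3:**
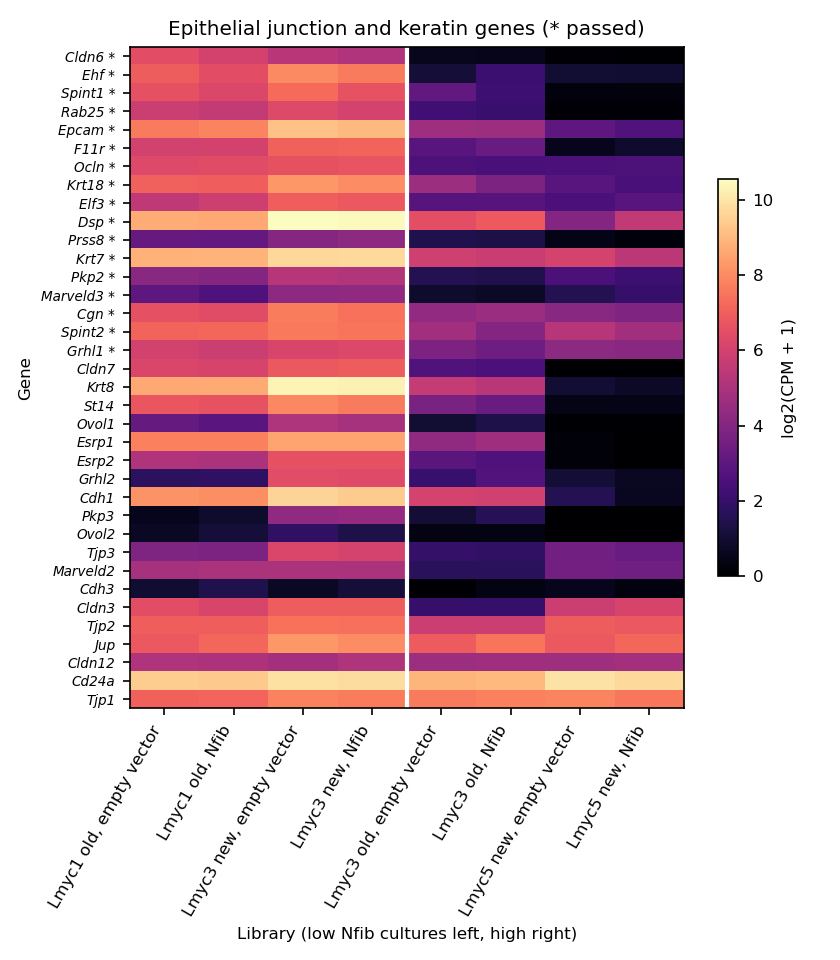
Level of the 36 tested epithelial junction and keratin genes (rows) in the 8 libraries (columns, low Nfib cultures left of the white line), colour being log2(CPM + 1); a star marks the 17 genes that passed. The 2 columns of a culture look alike, and most rows are bright on the left and dark on the right, with Tjp1, Cd24a and Jup bright throughout.

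Promoters of these genes are shown because their members moved together. RefSeq promoter windows (GRCm38.p6) were read over the 250 bases before each start, on both strands, for 3 motifs: the full nuclear factor I site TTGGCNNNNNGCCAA, its half-site TTGGC or GCCAA, and the E-box CAGGTG or CACCTG bound by ZEB and SNAI factors, the last chosen after the epithelial difference was known. Each full site also holds 2 half-sites. Of the 17 epithelial genes that were lower, 13 were in the table, with 15 windows; 9 (60%) held the E-box and 6 (40%) the half-site, against 17.2% and 41.5% of the 32817 windows of all genes. Over the 36 tested members, 22 matched with 29 windows, of which 44.8% held the E-box and 44.8% the half-site. The full site was in none of these windows and in 0.0366% of all windows. Windows were not matched on base composition, and a match is a description of letters only. Below are 3 windows that overlap no GENCODE vM21 exon, 2 with the E-box in capitals and 1 without it, each from a gene that was lower in the high Nfib cultures.
Epcam, GRCm38.p6 chr17:87635729-87635978, plus strand: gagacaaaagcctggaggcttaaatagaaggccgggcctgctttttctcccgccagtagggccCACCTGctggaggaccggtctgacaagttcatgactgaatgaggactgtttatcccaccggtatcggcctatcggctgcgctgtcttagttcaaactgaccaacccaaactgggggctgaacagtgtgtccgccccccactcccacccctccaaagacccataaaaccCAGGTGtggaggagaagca
Spint2, GRCm38.p6 chr7:29281978-29282227, minus strand: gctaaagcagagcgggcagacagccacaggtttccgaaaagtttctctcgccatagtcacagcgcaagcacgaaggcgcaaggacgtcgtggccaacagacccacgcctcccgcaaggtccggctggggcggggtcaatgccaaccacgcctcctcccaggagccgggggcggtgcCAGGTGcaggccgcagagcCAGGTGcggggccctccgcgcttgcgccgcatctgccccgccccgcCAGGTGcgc
Spint1, GRCm38.p6 chr2:119237110-119237359, plus strand: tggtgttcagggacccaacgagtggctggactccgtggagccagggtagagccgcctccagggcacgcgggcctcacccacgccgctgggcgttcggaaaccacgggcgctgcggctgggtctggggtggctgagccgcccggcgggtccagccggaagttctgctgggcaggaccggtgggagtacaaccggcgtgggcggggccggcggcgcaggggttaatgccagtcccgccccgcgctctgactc
The windows hold 2, 3 and 0 E-boxes in that order, and the half-site is found only in that of Spint2.

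The genes with the largest differences were close to off in one kind of culture. A fold is not given for them, since the fitted value rests on single counts. Among the 15 protein-coding genes highest in the high Nfib cultures (no overlap of libraries, at least 5 CPM on average), the 4 low libraries together held 1 to 9 counts a gene. Fez1, which acts in axon outgrowth and transport, was at 0, 0.174, 0.0371 and 0.173 CPM in the low libraries, at 66.9 and 89.5 in Lmyc3_old and at 17.2 and 39.3 in Lmyc5_new (edgeR adjusted p = 0.00459). Gnai1, an inhibitory G protein subunit, was at 44.7 and 71.6 CPM in Lmyc3_old and 19.3 and 37.9 in Lmyc5_new, and Cnr1, the cannabinoid receptor of neurons, at 36.7 and 21.3 and at 12.4 and 14.6, all low libraries being at 0.131 CPM or below for both. Both high cultures expressed these genes, which were at or close to 0 in both low ones. The genes were picked for a large difference without overlap of libraries, so this pattern follows largely from the selection and adds no support. The others were Slc7a2 (a cationic amino acid transporter), Lrrn1, Cnksr2, Sdc2 (syndecan 2), Tspan9, Qpct, Prmt8, Adam23, Med12l, Arhgap28, Eya4 and Slc35f1. Adam23, Med12l, Arhgap28, Eya4 and Slc35f1 were mostly a matter of Lmyc3_old. Slc35f1 stood there at 355 and 114 CPM, and at 1.94 and 4.29 in Lmyc5_new. Adam23 was at 30.2 and 22.8 CPM in Lmyc3_old and at 1.9 and 2.34 in Lmyc5_new. Arhgap28 was mostly a matter of the empty vector library of Lmyc3_old, at 127 CPM. In the Nfib library of that culture it was at 4.69 CPM, and in Lmyc5_new at 1.26 and 2.11. Prmt8 went the other way, at 0.804 and 1.29 in Lmyc3_old and at 17.3 and 44.0 in Lmyc5_new. Msn (moesin, a linker of membrane and actin), picked after its values were seen, was at 0.26 CPM or below in the low libraries and at 22.2 to 150 in the high ones (edgeR adjusted p = 0.00717).

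The 15 largest in the other direction held epithelial and developmental genes. Besides Cldn6 and Ehf they included Chl1, an adhesion molecule of the L1 family, at 407 and 562 CPM in Lmyc1_old, 341 and 474 in Lmyc3_new, 3.03 and 15.2 in Lmyc3_old, and 3.79 and 7.49 in Lmyc5_new (-6.13 ± 0.41, edgeR adjusted p = 0.00194). Kcnq1, a potassium channel of epithelia and heart, was at 23.3 to 37.0 CPM in the low libraries and 0.184 to 0.361 in the high ones (-6.72 ± 0.34, edgeR adjusted p = 0.000623). Pdzd7 was at 50.3 to 66.5 CPM against 0.276 to 1.33. Relative to their mean level, these 3 genes varied more among the high libraries than among the low ones. Ptf1a, a transcription factor of pancreas and hindbrain, was at 3.22 and 3.27 CPM in Lmyc1_old, 26.8 and 57.1 in Lmyc3_new and at most 0.181 in the high libraries, and Tcfl5 differed between the low cultures in the same way (0.959 to 2.17 against 17.8 to 21.9 CPM). The rest were Anxa1 (annexin A1), Pde11a, Gpr37l1, Tmem45b, Pla2g16, Pgr15l, Rec8 (a meiotic cohesin subunit) and Crip1.

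**Figure D4:**
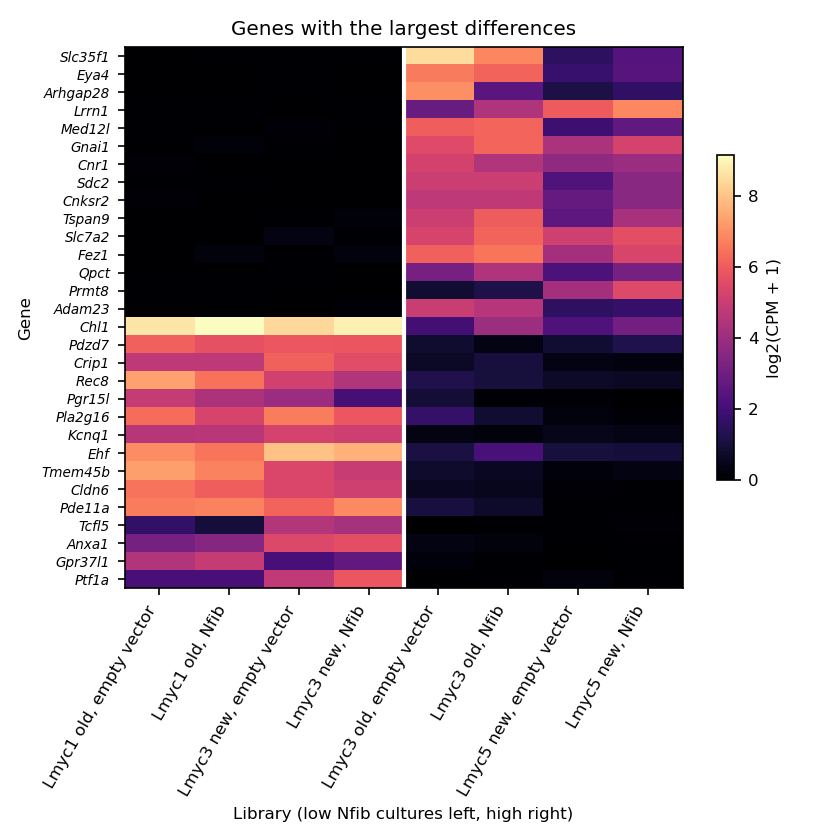
Level of the 15 genes with the largest difference in each direction (rows, highest difference at the top) in the 8 libraries (columns, low Nfib cultures left of the white line), colour being log2(CPM + 1). The upper 15 rows are dark in all 4 low libraries, and the lower 15 are dark in all 4 high libraries apart from Chl1, at 3.03 to 15.2 CPM there.

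Neuronal genes moved as single members and not as a block. Of 22 tested SCLC subtype and neuroendocrine transcription factors, 3 were higher and 0 lower in the high Nfib cultures (all genes: 3.71% and 5.26%), or 3 and 4 without Lmyc5_new. Myt1l, a factor that represses non-neuronal genes, was at 13.5 and 14.6 CPM in Lmyc1_old, 28.2 and 17.5 in Lmyc3_new, 94.0 and 83.4 in Lmyc3_old, and 115 and 92.2 in Lmyc5_new (2.39 ± 0.25, edgeR adjusted p = 0.00534). Onecut1 was at 0.131 CPM or below in the low libraries and 5.46 to 7.57 in the high ones, and Scrt2, a scratch family repressor, at 0.13 or below and 0.598 to 7.05. Insm1, a zinc finger factor of neuroendocrine cells, was at 279 to 357 CPM in the low and 93.1 to 511 CPM in the high libraries (edgeR adjusted p = 0.936), and the kinds overlapped. Of 32 secretory granule genes, 1 was higher (Cpe, a prohormone processing carboxypeptidase, 1.43 ± 0.34, edgeR adjusted p = 0.0486, and 0.0687 by DESeq2 on sums) and 2 lower. The latter were Vgf (a granule peptide precursor, 23.4 to 36.0 CPM low, 5.96 to 12.1 high) and Tph1 (the enzyme of serotonin synthesis, 13.7 to 20.1 CPM low, 2.70 to 8.05 high). Chga (chromogranin A) was at 426 to 1694 CPM over the 8 libraries with an adjusted p of 0.929. Insm1 and Chga were picked after their values were seen.

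The balance of synaptic and ion channel genes depended on the fit. Of 49 tested synaptic and neuronal genes, 5 were higher and 0 lower (all genes: 3.71% and 5.26%), with a median log2 difference of 0.21. They included the glutamate receptor subunits Grik2 (at most 0.131 CPM low, 2.98 to 6.90 high), Gria3 (at most 0.0436 low, 0.568 to 18.8 high) and Grin2b (at most 0.0872 low, 0.741 to 21.9 high). Cplx1, which regulates vesicle fusion, was at 2.45 to 10.8 CPM low and 25.5 to 199 high (3.90 ± 0.83, edgeR adjusted p = 0.0354). Of 37 channel genes, 4 were higher and 1 lower (all genes: 3.71% and 5.26%), with a median of -0.02: the sodium channel Scn1a, the calcium channel Cacna1e and the potassium channels Kcnk3 and Kcnd3 were higher, and Trpm4, a cation channel, was lower. Kcnk3 was at 11.3 to 33.2 CPM low and 65.8 to 156 high, and Cacna1e at 0.102 to 1.44 low, 4.82 and 5.93 in Lmyc3_old and 89.2 and 83.3 in Lmyc5_new. Without Lmyc3_new the synaptic list had 2 members higher and 0 lower and the channel list 1 and 0. Without Lmyc5_new they had 7 and 4, and 4 and 8, so the channel list then held more lower than higher members. DESeq2 on the 8 libraries gave the synaptic list 10 higher and 4 lower and the channel list 7 and 1 (all genes: 10.1% and 11.7%).

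Single matrix, adhesion and guidance genes were called in either direction. Of 19 tested basement membrane and matrix genes 2 were higher and 1 lower, of 30 integrins and adhesion molecules 2 and 1, and of 49 axon guidance genes 6 and 4, against 3.71% and 5.26% of all genes. The adhesion list was near that background. Fn1 (fibronectin) was at 0.644 and 0.436 CPM in Lmyc1_old, 0.408 and 0.173 in Lmyc3_new, 84.4 and 31.8 in Lmyc3_old, and 30.5 and 92.4 in Lmyc5_new (7.17 ± 0.66, edgeR adjusted p = 0.00459). Itgav, an integrin subunit that can pair into fibronectin receptors, was at 0.26 to 0.984 CPM low and 4.74 to 25.3 high. Thbs1 (thrombospondin 1) went the other way, at 9.50 to 164 CPM low and 0.966 to 4.59 high. Fn1 was thus under 1 CPM in every low library and far above that in every high one. Among guidance genes, the ephrin receptors Ephb1 (at most 0.174 CPM low, 4.54 to 16.9 high) and Epha5 and the ligand Efnb2 (1.73 to 4.71 CPM low, 16.6 to 31.8 high) were higher, as was the secreted ligand Slit2. Unc5b, a netrin receptor, was lower (52.9 to 96.5 CPM low, 2.53 to 6.24 high), and so were Ephb4, Plxna1 (a semaphorin receptor) and Sema4d, the last with an adjusted p of 0.0874 by DESeq2 on sums.

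Notch, Hippo and growth factor lists each held members called in both directions. Of 23 tested Notch pathway genes 3 were higher and 1 lower (all genes: 3.71% higher, 5.26% lower, here and for the lists that follow): the receptor Notch2 (at most 0.566 CPM low, 23.5 and 54.9 in Lmyc3_old, 2.44 and 7.53 in Lmyc5_new), the coactivator Maml2 and the target Hey2 were higher, and the target Hes1 was lower (8.15 to 14.3 CPM low, 2.12 to 4.65 high). DESeq2 on sums passed Notch2 but not Maml2, Hey2 or Hes1 (adjusted p = 0.198, 0.159 and 0.0951). Of 17 Hippo and non-neuroendocrine markers, Cd44 (a hyaluronan receptor), Lgals1 and Tead1 (a partner of YAP, adjusted p = 0.191 by DESeq2 on sums) were higher, and Anxa1 and Hes1 lower. Of 27 receptor tyrosine kinases and ligands, the collagen receptor Ddr2 (0.237 to 1.08 CPM low, 45.6 to 260 high) and the platelet-derived growth factor receptor Pdgfra were higher. Ret (the receptor of glial cell line-derived factors, 317 to 488 CPM low, 19 to 85.4 high), Kit, Ltk and Vgf, which the list also holds, were lower. Of 23 immediate early and ERK feedback genes, Etv1, Spred1 and Dusp1 (adjusted p = 0.185 by DESeq2 on sums) were higher and the phosphatase Dusp6 was lower (12.1 to 15.8 CPM low, 2.39 to 6.05 high). Tgfb2, a transforming growth factor, was the 1 of 15 mesenchymal transition genes that passed (at most 0.95 CPM low, 4.29 to 37.7 high).

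Interferon and antigen presentation genes were the list with the next lowest median among those with at least 8 tested genes, -1.42 over 28 members, of which 4 were lower and 0 higher (all genes: 5.26% and 3.71%). B2m, the light chain of class I molecules, was at 40.7 and 28 CPM in Lmyc1_old, 29.9 and 27.2 in Lmyc3_new, 7.95 and 7.91 in Lmyc3_old, and 7.90 and 9.95 in Lmyc5_new (-1.89 ± 0.20, edgeR adjusted p = 0.00534). Ifit1 was at 2.40 to 6.01 CPM low and 0.0903 to 0.156 high, the RNA sensor Ifih1 at 13.6 to 28.3 low and 1.84 to 4.21 high, and Rsad2 passed with an adjusted p of 0.0365 (0.072 by DESeq2 on sums). The rest of the list did not pass, and 11 of the 28 had all low libraries above all high ones (12.6% of all genes). Leaving out Lmyc3_new left 2 members lower and leaving out Lmyc5_new 12.

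Developmental, chromatin, growth and metabolic lists differed in how many members passed, against 3.71% higher and 5.26% lower over all genes. Of 17 SOX and oncofetal regulators, Sall4 (a stem cell zinc finger factor, 1.77 to 13.1 CPM low, 0.0781 to 0.677 high), the architectural protein Hmga1 and Sox13 were lower, 3 in all and 0 higher. Of 22 imprinted genes, 5 passed: Plagl1 (0.0742 to 0.712 CPM low, 22.7 to 56.1 high) and Peg10 were higher, and the noncoding RNA Rian was lower with 2 further members. Rbbp4, a histone binding subunit of several chromatin complexes, was at 379 to 428 CPM low and 716 to 846 high (0.92 ± 0.09, edgeR adjusted p = 0.00459), and Tet1, which oxidises methylcytosine, was the other of 23 polycomb and DNA methylation genes that passed. Of 28 proliferation genes only Kif2c and of 38 replication genes only Pole passed, both higher by less than 1 log2 unit and neither by DESeq2 on sums (adjusted p = 0.132 and 0.622). Of 9 tested Hox cluster genes Hoxd8 was higher, with 0 counts in all 4 low libraries and 1.06 to 1.84 CPM in the high ones. The summed level of the Hox list was 8.42 and 8 CPM in Lmyc3_old, against 569 to 1132 CPM in the low libraries. In Lmyc5_new it was 975 and 962 CPM, so the high cultures differed in this list. The list's median log2 difference was -6.7 within old and 0.25 within new. Of 30 stress response genes Nqo1 was lower, at 0.907 to 2.48 CPM low and 0.0473 or below high. Of 11 genes of the MYC family and its MAX network none passed. Pmvk, from the list of cholesterol and fatty acid genes, whose count is not reported here, was lower. Of 29 glycolysis and hypoxia genes Pdk1 was lower, and of 11 mitochondrially encoded genes none passed; Pmvk had an adjusted p of 0.112 by DESeq2 on sums.

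Of the markers of cells that a culture could also hold, those of leukocytes were mostly absent and those of other cell types only in part. Of 14 leukocyte markers 12 stayed under 1 CPM in every library, with Ptprc (CD45) at 0.0436 CPM or below, and of 17 fibroblast and endothelial markers 10 did, with Pecam1 at 0.426 or below and Col1a1 at 0.184 or below. The summed level of the leukocyte list was 41.4 to 58.4 CPM low and 19.9 to 33.3 high, most of it Coro1a, an actin regulator (-1.01 ± 0.15, edgeR adjusted p = 0.0124). The fibroblast and endothelial sum was 358 to 658 CPM low and 93.5 to 122 high. In the low libraries nearly all of it was Vwf (von Willebrand factor, stored in granules), at 331 to 650 CPM low and 38.7 to 71.4 high (-3.15 ± 0.30, edgeR adjusted p = 0.00459). Of 20 alveolar and airway markers 10 stayed under 1 CPM (summed level 133 to 165 CPM low, 109 to 178 high), of 15 glial markers 6 (126 to 309 CPM low, 293 to 461 high), and of 9 red cell and liver markers 6. Slc1a2, a glutamate transporter of glia, passed (at most 0.436 CPM low, 1.35 to 22.4 high), while Gfap stayed at 0.117 CPM or below. The alveolar water channel Aqp5, picked after its values were seen, was higher and the prothrombin gene F2 lower by the same test, F2 being at 5.53 CPM or below in every library. Of the most abundant members of these lists, Abca3, Dnah5, Cd68, Fbln1, Mbp, Pmp22, Ttr and F5 did not pass. Abca3 was at 71.9 to 115 CPM over the 8 libraries, Mbp at 91.1 to 238 and Ttr at 144 to 418. Fbln1 was at 0.82 to 13.9 CPM low and 16.4 to 37.8 high. Pdgfra, also in the fibroblast list, passed (at most 0.784 CPM low, 2.58 to 12.1 high). The part of these levels in the results above was not tested.

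The other nuclear factor I genes and the genes of the tumour model did not pass. Nfia was at 0.0678 and 0.0872 CPM in Lmyc1_old, 14.1 and 13.2 in Lmyc3_new, 84.2 and 53.3 in Lmyc3_old, and 49.0 and 52.3 in Lmyc5_new, so all high libraries lay above all low ones, with an adjusted p of 0.251. Nfix and Nfic overlapped (adjusted p = 0.391 and 0.215). Mycl was at 142 and 179 CPM in Lmyc1_old, 156 and 256 in Lmyc3_new, 463 and 1129 in Lmyc3_old, and 118 and 166 in Lmyc5_new (adjusted p = 0.276), the count not parting the transgene from the cell's own gene. Rb1 and Trp53 reads were present in all libraries, at 11.5 to 40.3 and 8.24 to 19.5 CPM; counts per gene do not show a deleted exon.

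Neighbours of Nfib on chromosome 4 were read in the same way. Nfib lies at 82290173-82705750 in the coordinates of the deposited table (build GRCm38). Of the 5 nearest tested protein-coding genes on either side, none passed. Zdhhc21, at 82798738-82859958, was at 116 to 149 CPM low and 113 to 205 high (adjusted p = 0.566), and Cer1, at 82881751-82885148, at 10.6 to 30.6 low and 3.86 to 16.5 high (adjusted p = 0.114). Snapc3, at 83417724-83467676, came nearest, with 18.6 to 25.6 CPM low and 31.5 to 34.0 high (adjusted p = 0.0506). On the other side Mpdz, at 81278500-81442815, was at 81.0 to 184 CPM in all libraries but those of Lmyc3_new, where it was at 0.297 and 0.475 (adjusted p = 0.478). The other neighbours were Lurap1l, Ptprd, Tmem261, Kdm4c, Frem1 and Ttc39b. RNA counts do not measure copy number.

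Forced Nfib was set beside these values; both comparisons use the same 8 libraries, so no overlap or correlation of them is given. Comparing the Nfib with the empty vector arm, edgeR called 0 genes without the culture as a block (83 at an unadjusted p under 0.05) and 0 with it (2012), while DESeq2 with the block called 249 higher and 294 lower (4.06% of 13380) and without it 3 and 0. Changes below are edgeR's with the block, with DESeq2's adjusted p. The epithelial list, so different between the cultures, had a median change of -0.06 with forced Nfib (0 over all genes), with 0 members higher and 1 lower, Spint1 (-0.60, adjusted p = 0.025). Epcam changed by -0.09 (adjusted p = 0.823), Ocln by 0.05 (adjusted p = 0.944), Krt7 by -0.18 (adjusted p = 0.622) and Cldn6 by -0.36 (adjusted p = 0.408). Epcam, Ocln, Krt7 and Cldn6 were thus at similar low levels in the high cultures with and without the Nfib vector. In the low cultures they stayed high at 1294 and 3005 CPM of Nfib. Some other members moved more in Lmyc5_new, where Dsp went from 15 to 47.1 CPM and Cdh1 from 1.94 to 0.546. The interferon list had 0 members changed by forced Nfib (median -0.15).

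Neuronal lists had members that fell with forced Nfib. By DESeq2 over the 8 libraries, 10 of 49 synaptic genes were higher and 4 lower between the kinds, and 0 rose and 10 fell with forced Nfib. Of 32 secretory granule genes 4 were higher and 3 lower, and 0 rose and 6 fell. Between the kinds, DESeq2 called 10.1% of all genes higher and 11.7% lower, and the granule list was near those shares. Chl1, lower by 6.13 log2 units in the high cultures, had a change of 0.89 ± 0.29 (adjusted p = 0.171), and Fn1, at 30.5 CPM or more in all high libraries, a change of -0.08 ± 0.64 (adjusted p = 0.908). Of the 15 genes largest in the high cultures, Lrrn1, Gnai1 and Tspan9 rose with forced Nfib (1.26, 0.85 and 1.40; adjusted p = 0.0014, 0.0228 and 0.00302). Of the 15 lowest, Pla2g16, Rec8 and Pgr15l fell (-1.03, -0.72 and -1.58; adjusted p = 3.91e-05, 0.00607 and 0.0236). Over all genes 1.86% rose and 2.2% fell.

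Some of the named genes were called in both comparisons. They were picked by rank, by list or after their values were seen, so their directions say nothing about all genes. Rab3a, a GTPase of synaptic vesicles, went in opposite directions: it was at 39.5 and 32.5 CPM in Lmyc1_old, 70.4 and 47.7 in Lmyc3_new, 177 and 106 in Lmyc3_old, and 98.0 and 71.1 in Lmyc5_new. It was higher in the high cultures (1.23 ± 0.29, edgeR adjusted p = 0.0475) and fell with forced Nfib in all 4 cultures (-0.52, DESeq2 adjusted p = 0.000172). Robo2, a receptor of Slit ligands, did likewise (1.52 between kinds, adjusted p = 0.0369; -0.53 with forced Nfib, adjusted p = 0.0281). Both were picked after their values were seen. Necab2, a calcium binding protein of neurons, was at 0.814 and 9.63 CPM in Lmyc1_old, 1.74 and 6.13 in Lmyc3_new, 11.2 and 43.9 in Lmyc3_old, and 7.09 and 41.0 in Lmyc5_new. It was thus higher with the Nfib vector in all 4 cultures and higher in the high cultures within each arm, by 2.63 ± 0.33 between kinds (edgeR adjusted p = 0.00735) and 2.41 ± 0.29 with forced Nfib (adjusted p = 9.15e-12). Itga1, an integrin subunit that binds collagen and laminin, was at 0 and 0.697, 0 and 0.432, 0.993 and 5.11, and 1.04 and 8.39 CPM in the same order. Adcyap1r1, the receptor of the peptide PACAP, was at 0 and 1.44, 0 and 0.173, 13.2 and 46.6, and 0.587 and 33.1. Reln (reelin, a secreted matrix protein of the brain) was at 0.0872 CPM or below in the low libraries, at 12.6 and 51.7 in Lmyc3_old and at 1.17 and 7.69 in Lmyc5_new. In Reln and Adcyap1r1 the low cultures stayed at 1.44 CPM or below with the Nfib vector. Ror1, Smpdl3b, Slc1a2, Kcnd3, Epha5, Notch2, Tgfb2, Dusp1 and Aqp5 were also higher in both comparisons.

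Genes lower in both were fewer among those named. Sall4 fell from 13.1 to 5.66 CPM in Lmyc1_old, from 6.20 to 1.77 in Lmyc3_new, from 0.662 to 0.138 in Lmyc3_old and from 0.677 to 0.0781 in Lmyc5_new (-1.75 ± 0.29, adjusted p = 0.00321). The empty vector libraries of the high cultures thus lay below the low cultures with the Nfib vector. Upp1 (uridine phosphorylase) and Smyd1 were lower with forced Nfib by 1.69 and 1.68 log2 units, with SE 0.38 and 0.30, and lower in the high cultures with adjusted p = 0.0401 and 0.0388. Thbs1, Kit, Plxna1 and Coro1a did likewise. Other genes with large forced changes did not pass between the kinds: Piezo2, a mechanosensitive channel, fell with forced Nfib (-1.85 ± 0.34, adjusted p = 3.91e-05) and was at 1.08 to 17.2 CPM low and 3.91 to 17.0 high (adjusted p = 0.983). Ppp1r1b, a phosphatase inhibitor of dopamine signalling, rose (2.80 ± 0.45, adjusted p = 1.64e-08) and was at 3.04 to 25.4 CPM low and 2.48 to 53.9 high (adjusted p = 0.876). The same was so of 11 others named by their forced change, with adjusted p from 0.103 to 0.427 between the kinds: Susd5, Duox2, Agt, Abcb1b and Tll1 rose with forced Nfib, and Nnat, Shisa3, Kl, Fam19a4, St6galnac5 and F5 fell.

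**Figure D5:**
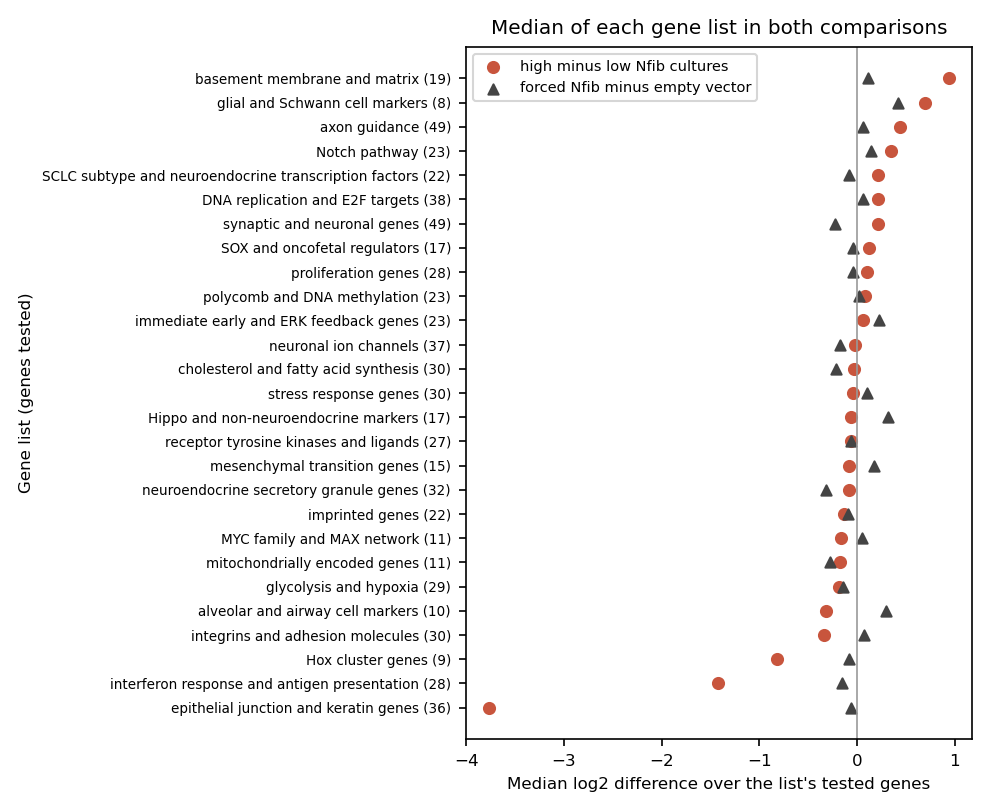
Median log2 difference over the tested genes of each fixed list with at least 8 tested genes (vertical axis, number tested in brackets) between high and low Nfib cultures (circles) and between forced Nfib and empty vector with the culture as a block (triangles). The epithelial list lies at -3.77 and -0.06, and the interferon list at -1.42 and -0.15.

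Whether forced Nfib acted differently in the 2 kinds of culture was tested with an interaction term in edgeR, with the culture as a block. No gene passed (smallest adjusted p 0.294), and 1134 had an unadjusted p under 0.05. The term was not run in another tool. With the same block, edgeR called no gene for forced Nfib, not even Nfib (3.69 ± 0.25). A fit that misses the introduced gene cannot show that the 2 kinds responded alike, so no conclusion is drawn.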

How the data were processed

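RNA of the 8 cultures was sequenced as Illumina TruSeq libraries. Per the submitters' processing notes, reads were processed with TopHat2 2.1, Bowtie 1.0.0 and SAMtools 0.1.19 on GRCm38 (mm10), with DESeq2 also named; how genes were counted, on which strand and with which annotation is "not given in the sources used here", so antisense, overlapping and near-identical genes are uncertain. The authors deposited 1 table of raw counts per gene. From these counts, edgeR 4.0.16 (R 4.3.3) fitted kind of culture and arm over the 8 libraries after TMM scaling and filterByExpr, and tested with the original form of its quasi-likelihood test, with Benjamini-Hochberg adjustment and a threshold of 0.05. Kinds were assigned by the Nfib limit of 250 CPM of the library total. The labels give replicate numbers, which are the cultures; same-numbered libraries deviated from their arm means together (r of 0.912 to 0.951 over the 4 pairs), so the replicate block pairs the arms of a culture. The labels do not say that cultures came from separate animals. Y-linked genes and Xist part the 2 Lmyc3 cultures from the others by sex. Nothing says that cultures of the same sex came from separate animals, and p-values measure the spread between these libraries. DESeq2 1.42.0 and limma 3.58.1 served for alternatives; DESeq2 and bias-adjusted edgeR on culture sums were added after edgeR on culture sums had given 0 calls. The scripts were tested on simulated data. With a simulated culture effect shared by both arms, the fits over 8 libraries called many unchanged genes. Named were the 15 protein-coding genes of largest difference each way (passing, mean of at least 5 CPM, no overlap of libraries), up to 4 members each way of each of 33 lists (passing, mean of at least 1 CPM, no overlap), the 2 most abundant members of the lists of other cell types, the 5 nearest tested genes on each side of Nfib, and the 10 genes of largest forced change each way in DESeq2 with the block, since edgeR called none there. The comparison, its members and the lists were chosen with earlier results of these data known. Promoters come from a RefSeq table (GRCm38.p6) matched by symbol. Libraries of 21815264 to 29934021 counts limit precision only for genes near 0.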

Additional observations from a re-analysis of the deposited data

Results flagged for a closer look

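Within an arm of 4 libraries, 1 library stood far from the other 3 in 9 of the 338 gene and arm groups examined (169 named genes, Dixon's ratio on log2 CPM). Chance flags about 1 group in 20 where the 4 libraries are of one kind. Here each arm held both kinds of culture, and many genes were picked because the kinds did not overlap. That rate thus gives no expected number, and whether 9 is an excess was not tested. Of the neighbours of Nfib, Mpdz was at 0.297 CPM in the empty vector library and 0.475 CPM in the Nfib library of Lmyc3_new, against 90.1 to 184 and 81 to 174 CPM in the other cultures, and Tmem261 was at 42.2 CPM in the Nfib library of Lmyc3_old, against 12.7 to 14.9 CPM. Of the epithelial genes, Cldn3 was at 3.04 CPM in the Nfib library of Lmyc3_old, against 69 to 122 CPM, and Jup at 308 CPM in the empty vector library of Lmyc3_new, against 111 to 120 CPM. Of the cell type markers, the ciliary gene Dnah5 was at 1.18 CPM in the empty vector library of Lmyc3_old, against 20.6 to 27.8 CPM, and the myelin gene Pmp22 at 0.928 CPM in that of Lmyc3_new, against 15.8 to 27.2 CPM. Of the genes that rose with forced Nfib, Agt was at 48.3 CPM in the Nfib library of Lmyc5_new, against 7.58 to 9.34 CPM, and Abcb1b at 27.5 CPM in that of Lmyc3_old, against 6.3 to 7.89 CPM. As with Mpdz, the other library of the same culture was similar for Tmem261 (35 CPM), Cldn3 (2.98), Jup (255) and Dnah5 (1.89). For Pmp22 (12.4 CPM), Agt (8.85) and Abcb1b (6.2) that library differed.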

How the results depend on the processing

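The numbers of genes higher and lower in the high Nfib cultures were 497 and 704. They were 0 and 0 in edgeR on culture sums (bias-adjusted form included), in the empty vector libraries alone and in the Nfib libraries alone, and 0 and 3 with the culture as a random effect. They were 1242 and 1491 with old or new as a further covariate, 1345 and 1564 in DESeq2, 110 and 182 at an adjusted p under 0.01, and 916 and 1224 at 0.1. A mean of at least 5 CPM gave 306 higher. Leaving out a culture gave 174 to 1040 higher and 277 to 1193 lower, and leaving out a library 175 to 296 and 306 to 438. The 17 lower epithelial genes became 0 in edgeR on culture sums, its bias-adjusted form and either arm alone, 1 with the random effect, 30 in DESeq2, 8 at 0.01, 8 to 26 without a culture and 10 to 12 without a library. With forced Nfib, edgeR's 0 higher and 0 lower genes stayed 0 with the replicate block and without any 1 culture; the replicate block in DESeq2 gave 249 and 294, or 324 and 201 with total counts as scaling, and DESeq2 without the block 3 and 0. Of 168 named genes with a fitted difference between the kinds, 22 changed sign in at least 1 fit. The 120 that passed kept theirs in all fits run, which adds no support, since most were picked for having no overlap of libraries. Apart from the fits that change what is tested (fewer samples, culture units, another threshold), the cause of these shifts was not tested. The median of all genes moved from 0.03 to 0 (log2) with total counts.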
